A study of Mus musculus with 8 samples.

Results

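The aminoacyl-tRNA synthetase genes of the mouse were followed in the aging brain. They were chosen by name alone, as the protein-coding genes of the GENCODE annotation whose symbols follow the synthetase nomenclature (an amino acid letter, "ars" and a number, together with Ears2, Eprs1, Farsa and Farsb). This rule gave 38 genes of the 22430 in the count table, 21 for the cytosolic enzymes and 17 for the mitochondrial ones, and all 38 had enough reads to be tested. The samples were brain hemispheres (labelled whole brain) of 8 male C57Bl/6JRj mice with no labelled treatment. Young adults (6 months, 6m, n = 4) were compared with aged mice (24 months, 24m, n = 4), and each animal gave 1 poly(A) RNA library. Hemispheres were homogenized whole, so each library averages over brain regions and cell types, and fewer cells of a type cannot be told apart from less RNA per cell. Both groups are males of the same commercial strain, and age is their only labelled difference.

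An aminoacyl-tRNA synthetase joins an amino acid to the tRNA that reads its codons, which is the step that fixes the genetic code in protein synthesis. Cytosolic and mitochondrial translation use separate enzymes for most amino acids. All of the mitochondrial enzymes are encoded in the nucleus and imported, and Gars1 and Kars1 make forms for both compartments. Eprs1 carries a glutamyl- and a prolyl-tRNA synthetase in 1 protein, Farsa and Farsb are the subunits of the cytosolic phenylalanyl enzyme, and several cytosolic synthetases sit together with 3 scaffold proteins in the multisynthetase complex. Inherited variants in many of these genes cause disease of the nervous system, among them peripheral neuropathies (Gars1, Yars1) and leukoencephalopathies (Ears2, Aars2). Transcription of many cytosolic synthetase genes is raised by ATF4, the factor of the amino acid response, which binds as a heterodimer to the amino acid response element.

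That element, searched on both strands as TGATGNAAN in the 300 bases around the canonical transcript start (250 before it and 50 from it on), was present in 5 of 21 cytosolic synthetase promoters (23.8%) and in 0 of 17 mitochondrial ones. Among all 21770 protein-coding promoters 834 (3.83%) held it. The match nearest to the start of each of the 5 genes is shown, because it is what sets these genes apart from the other members in sequence. Each is written on the strand of the gene, with the match in capitals, and each match is the reverse complement of the motif:
Aars1, chr8:111760472-111760500 (+): agcgggtcacTTTTCATCAgagcgctctg
Cars1, chr7:143153783-143153811 (-): cggcgccgcgGTTGCATCAgattctggaa
Gars1, chr6:55014945-55014973 (+): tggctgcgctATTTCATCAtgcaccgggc
Iars1, chr13:49835602-49835625 (+): cactgtcagtATTGCATCAcctcc
Tars1, chr15:11399742-11399770 (-): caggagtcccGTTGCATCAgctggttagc
Coordinates are on GRCm39. Counting the first transcribed base as 1, these matches began at -26 in Aars1, -9 in Tars1, 12 in Gars1, 27 in Cars1 and 37 in Iars1. A match is a stretch of letters and not an observed binding site. None of the 5 genes was called between the ages by the rule below. Their log2 fold changes (log2FC, 24m over 6m) were 0.05 ± 0.07 (SE) for Aars1, -0.45 ± 0.07 for Cars1, -0.19 ± 0.07 for Gars1, 0.38 ± 0.09 for Iars1 and -0.19 ± 0.09 for Tars1, so they did not share a direction. A core of the NRF1 site (GCATGCGC), a motif known from nuclear genes for mitochondrial proteins, was found in the promoter of 1 member, Vars2, against 3.68% of all promoters.

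Library totals were 63460940 to 103462414 counts, and synthetase genes had 122 to 53490 counts per library. The deepest library, 24m replicate 1, also stood apart from the other 24m libraries in its scaling factor (1.0017 against 1.0859 to 1.1323). Member calls that change without it, and counts of calls in the partner lists that do, are given with and without it. All marker genes of the cell types checked were detected. Of the marker lists, 4 of 6 astrocyte, 2 of 6 microglia, 1 of 6 oligodendrocyte, 1 of 6 endothelial, 3 of 7 neuron and 2 of 4 choroid plexus genes were called higher in 24m, while 2 endothelial genes, 1 neuron gene and 3 of 3 red cell genes were called lower. Levels are given in CPM, counts per 1e+06 counts of a library whose total was rescaled by its TMM factor (trimmed mean of M values, which aligns most genes between libraries). The summed level of the neuron markers was 3411 to 3819 CPM in 6m and 3988 to 4207 CPM in 24m, that of the astrocyte markers 2614 to 3437 and 2605 to 3630, that of the microglia markers 271 to 303 and 266 to 397, that of the oligodendrocyte markers 3282 to 4137 and 3540 to 4159, and that of the endothelial markers 71.4 to 107 and 41.9 to 63.3. That of the choroid plexus markers was 1771 to 3192 and 817 to 2247, and that of the red cell genes 2911 to 4070 and 663 to 2213. Single abundant genes dominate some of these sums. Aldoc alone had a mean of 2507 CPM in 6m and 2057 CPM in 24m and was not called. The called astrocyte genes Gfap, Aqp4, Slc1a3 and Gja1 were all higher in 24m. Of the choroid plexus genes, Ttr had means of 2452.5 and 1416.3 CPM and was not called, while Kl and Clic6 were called higher. The part of these shifts in the synthetase values was not tested.

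In the aged brain 4 synthetase transcripts were called lower and 1 higher, whereas with libraries scaled by their totals alone, without TMM factors, 1 was called lower and 7 higher, beside 10.4% of all genes lower and 32.6% higher. A gene was called at an adjusted p of at most 0.05 (edgeR quasi-likelihood test, Benjamini-Hochberg over all genes tested) with a log2FC of at least 0.58 in either direction. Of the 38 members, 5 (13.2%) were called: Eprs1, Tars2, Rars2 and Cars2 lower, and Tars3 higher. Of all 16730 genes tested, 43.6% were called by the same rule, 25.3% higher and 18.3% lower, and of the 12159 genes within the members' range of mean level 44.5% were called. By the adjusted p alone, without a fold threshold, 22 members (57.9%) passed, 7 higher and 15 lower, against 62.6% of all genes (32.7% higher, 29.9% lower). With library totals alone this balance turned, to 14 higher and 8 lower. It went the other way, to 1 higher and 25 lower, when a trend over exonic length was removed. With a trend over GC content removed it was 2 higher and 21 lower. Libraries of the ages did not overlap for 20 of 38 members (6 above, 14 below), against 55.2% of all 16730 genes (4750 above, 4485 below). The median absolute log2FC was 0.38 over the members and 0.54 over all genes tested. Without 24m replicate 1, 27 members passed the adjusted p, 8 higher and 19 lower, and Fars2 was also called, with a log2FC of -0.58.

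**Figure D1:**
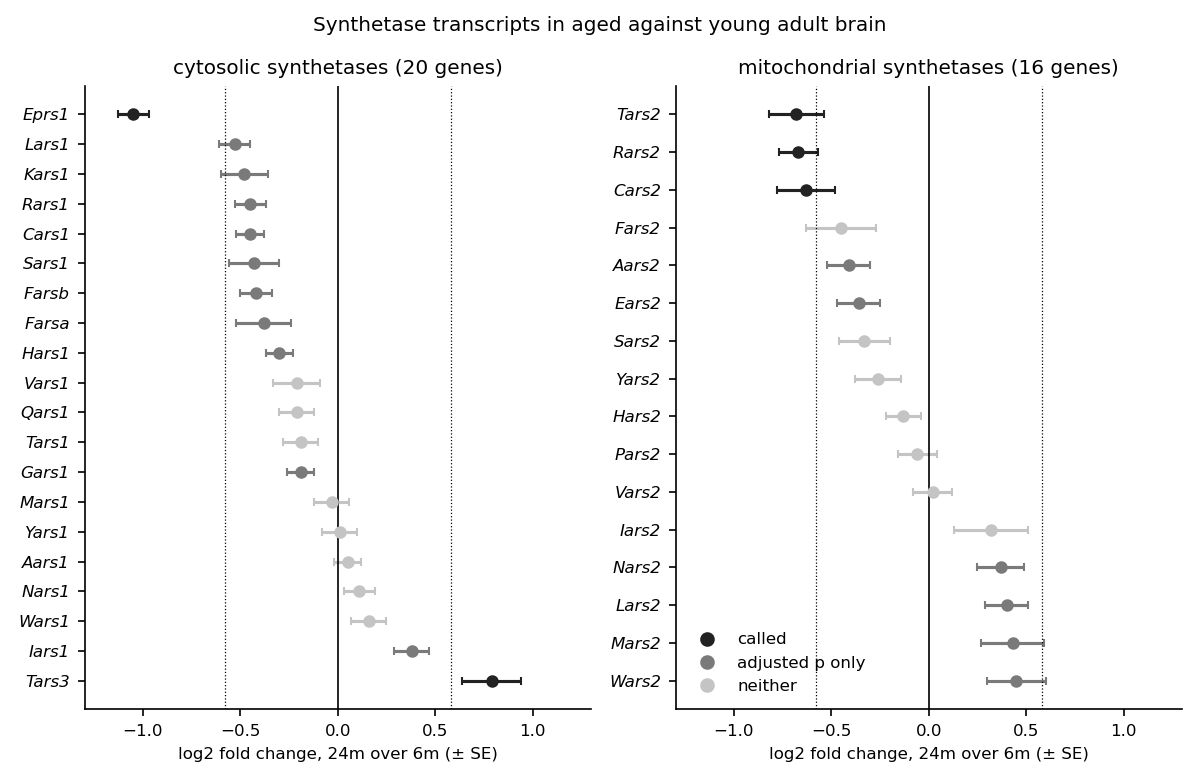
Log2 fold change (24m over 6m, horizontal axis) of 36 cytosolic and mitochondrial synthetase genes, with its SE, in the fit to 4 libraries per age; black points are called, dark gray points pass the adjusted p alone and dotted lines mark the fold threshold. Eprs1 (-1.05) lies farthest to the left and Tars3 (0.79) farthest to the right.

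As sets, both the cytosolic and the mitochondrial enzymes had lower mean levels in the aged brain on the TMM scale, but not with libraries scaled by their totals alone. The mean log2 CPM of the cytosolic members was 6.61, 6.56, 6.58 and 6.6 in the 6m libraries (replicates 1 to 4, the order used throughout) and 6.49, 6.39, 6.41 and 6.4 in the 24m libraries. That of the mitochondrial members was 4.14, 4.16, 4.14 and 4.12 in 6m, and 4.08, 4.0, 4.02 and 3.99 in 24m. For both sets each 24m library lay below each 6m library, and 24m replicate 1 was the closest to 6m. Cytosolic minus mitochondrial, this came to 2.445 ± 0.037 for 6m against 2.4 ± 0.0115 for 24m (SD, n = 4). The median log2FC was -0.21 over the cytosolic and -0.13 over the mitochondrial members, against -0.0 over all genes, whereas with libraries scaled by their totals alone, which moved the median of all genes to 0.21, the medians were 0.0 and 0.08. On that unscaled basis the members took 0.3035 ± 0.00129% of all counts in 6m and 0.3028 ± 0.00427% in 24m.

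Among the cytosolic enzymes Eprs1, the glutamyl-prolyl-tRNA synthetase, was called lower and had the largest change of any member on the TMM scale, whereas with library totals alone its log2FC was -0.83 and that of Tars3 was 1.01. Eprs1 (chr1:185095101-185161840, + strand, 32 exons in the canonical transcript) had 173, 139, 155 and 155 CPM in 6m, and 75.9, 73.5, 71.9 and 79.0 CPM in 24m. The ages were far from overlapping, and the level fell by 51.8% (log2FC -1.05 ± 0.08, adjusted p = 2.63e-05). Eprs1 made up 5.48 ± 0.421% of the summed cytosolic synthetase CPM in 6m and 3.08 ± 0.26% in 24m. Eprs1 remained called lower under every alternative tried, with log2FC from -1.68 to -0.83. Because it is both the glutamyl and the prolyl enzyme of the cytosol, its partners in the mitochondria are 2 genes, Ears2 (log2FC -0.36 ± 0.11, adjusted p = 0.0171) and Pars2 (-0.06 ± 0.1, adjusted p = 0.629), neither of which was called.

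Tars3, a second cytosolic threonyl-tRNA synthetase beside Tars1, was the member called higher. Tars3 (chr7:65294605-65341844, + strand) had 12.1, 14.2, 13.7 and 10 CPM in 6m, and 17.4, 21.5, 21.5 and 26.3 CPM in 24m. Each aged library exceeded each young one, with a log2FC of 0.79 ± 0.15 (adjusted p = 0.00157). Tars1 had 28.6, 28.7, 30.3 and 30.8 CPM in 6m, and 23.4, 25.3, 26.1 and 28.8 CPM in 24m. The ages overlapped by 1 library for Tars1, which was not called (log2FC -0.19 ± 0.09, adjusted p = 0.0784). Per kilobase of canonical transcript, Tars3 made up 34.4, 38.0, 35.9 and 28.7% of the sum of Tars1 and Tars3 in 6m, and 47.9, 51.3, 50.6 and 53.0% in 24m. The share therefore moved from 34.25 ± 3.98% to 50.7 ± 2.12% (SD, n = 4). The fold threshold was not passed by Tars3 after removal of a trend over exonic length (log2FC 0.53) or over GC content (0.5), nor with DESeq2 on quantile-normalized counts (0.58 after rounding), while its adjusted p was at most 0.00707 under every alternative.

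Kars1 and Gars1, whose transcripts also supply the mitochondrial lysyl and glycyl enzymes, were not called. Kars1 (chr8:112719747-112738004, - strand) had 219.8, 196, 202 and 234 CPM in 6m, and 187, 145, 146 and 131 CPM in 24m. The ages did not overlap, and Kars1 passed the adjusted p alone (log2FC -0.48 ± 0.12, adjusted p = 0.0052). Gars1 (chr6:55014927-55061231, + strand) had 228, 221, 219 and 228 CPM in 6m, and 205, 195, 195 and 193 CPM in 24m. The ages did not overlap either, but the difference was small (log2FC -0.19 ± 0.07, adjusted p = 0.033). Its adjusted p exceeded 0.05 without any single library except 24m replicate 1, reaching 0.0943, and its direction reversed with library totals alone (0.03).

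The remaining cytosolic members differed in direction. Lars1 (leucine, -0.53), Cars1 (cysteine, -0.45), Rars1 (arginine, -0.45), Sars1 (serine, -0.43), Farsb (-0.42) and Farsa (-0.38), both of the phenylalanyl enzyme, and Hars1 (histidine, -0.3) passed the adjusted p alone with negative log2FC. With library totals alone Rars1, Sars1, Farsa and Hars1 missed it, and Aars1, Mars1, Nars1, Wars1 and Yars1, named below, passed it with positive log2FC. With the length trend removed Hars1 missed it, and Aars1, Mars1, Qars1, Tars1, Vars1 and Yars1 passed it with negative log2FC. In that setting 15 cytosolic members passed it lower and 1 higher. Iars1 (isoleucine, 0.38) passed the adjusted p with a positive log2FC. It missed it with the length trend removed (0.15, adjusted p = 0.144) and was at 0.19 (adjusted p = 0.0445) with the GC trend removed. For Qars1 (glutamine, -0.21), Vars1 (valine, -0.21), Mars1 (methionine, -0.03), Yars1 (tyrosine, 0.01), Aars1 (alanine, 0.05), Nars1 (asparagine, 0.11) and Wars1 (tryptophan, 0.16), as for Tars1, the adjusted p lay between 0.0604 and 0.893. Without 24m replicate 1, Qars1 (adjusted p = 0.00333, log2FC -0.27) and Vars1 (adjusted p = 0.0067, log2FC -0.31) passed it as well. Over all fits with 1 library left out, their log2FC reached -0.16 for Qars1 and -0.12 for Vars1, with adjusted p up to 0.14 and 0.383. Iars1 had 41.3, 44.2, 47.2 and 43.8 CPM in 6m, and 51.0, 57.0, 56.7 and 65.3 CPM in 24m. Each aged library lay above each young one. Rars1 had 53.4, 51.3, 49.5 and 50 CPM in 6m, and 35.8, 36.0, 35.6 and 41.9 CPM in 24m, with the ages well apart in the other direction. Sars1, the synthetase with the most reads, had 556, 523, 509 and 577 CPM in 6m, and 516, 374, 378 and 337 CPM in 24m. There 24m replicate 1 lay among the young libraries, and without it the adjusted p of Sars1 was 5.03e-05 in place of 0.0158. With library totals alone (log2FC -0.22, adjusted p = 0.0668) and after quantile normalization and DESeq2 (log2FC -0.11, adjusted p = 0.319) Sars1 did not pass. Of the 8 synthetases of the multisynthetase complex, Eprs1 was called, Lars1, Rars1 and Kars1 passed the adjusted p with a negative log2FC, 2 members including Iars1 with a positive one, and Qars1 and Mars1 did not pass it. Their median log2FC was -0.33, against -0.19 over the 13 cytosolic members outside the complex, of which 6 passed the adjusted p with a negative and 1 with a positive log2FC, beside 29.9% and 32.7% of all genes. A difference between these groups was not tested.

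**Figure D2:**
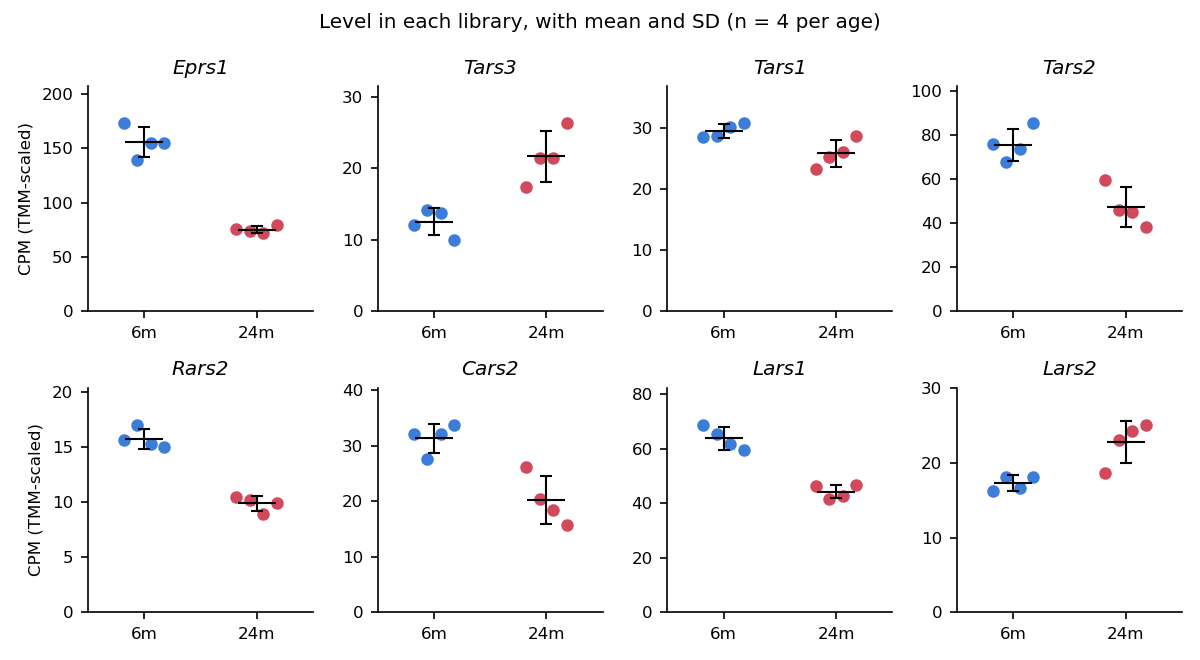
TMM-scaled CPM (vertical axis, from 0) in each library, as points, for 8 synthetase genes at 6m and 24m; horizontal bars show the mean and error bars the SD (n = 4 per age). The points of the 2 ages are separated for Eprs1, Tars3, Tars2, Rars2, Cars2, Lars1 and Lars2, and overlap for Tars1.

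Among the 17 mitochondrial enzymes 3 were called (17.6%), all of them lower in the aged brain, beside 18.3% of all genes called lower. Tars2, the mitochondrial threonyl enzyme (chr3:95647269-95667518, - strand), had 75.8, 67.6, 73.8 and 85.3 CPM in 6m, and 59.7, 46.0, 45.2 and 38.2 CPM in 24m. The ages did not overlap, although 24m replicate 1 lay nearer to the young libraries than the other aged ones (log2FC -0.68 ± 0.14, adjusted p = 0.00201). Rars2, the mitochondrial arginyl enzyme whose loss causes a form of pontocerebellar hypoplasia (chr4:34614638-34660904, + strand), had 15.6, 17.0, 15.3 and 15 CPM in 6m, and 10.5, 10.2, 8.91 and 9.92 CPM in 24m. Both ages were tight, with a log2FC of -0.67 ± 0.1 (adjusted p = 0.00036). Cars2, the mitochondrial cysteinyl enzyme (chr8:11558417-11600875, - strand), had 32.0, 27.6, 32.0 and 33.7 CPM in 6m, and 26.1, 20.4, 18.5 and 15.8 CPM in 24m. The ages were close but did not overlap (log2FC -0.63 ± 0.15, adjusted p = 0.0044). Without 24m replicate 4 Cars2 fell under the fold threshold (log2FC -0.53, adjusted p = 0.00753), and with library totals alone none of the 3 was called (log2FC from -0.47 to -0.42), while each remained negative. Exons of Cars2 overlap the opposite-strand gene Naxd over 29.13% of their length.

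The other mitochondrial members had log2FC from -0.45 to 0.45. Aars2 (-0.41) and Ears2 (-0.36) passed the adjusted p alone with lower levels in 24m, and missed it with library totals alone (-0.19 and -0.14). Ears2 was called lower (-0.64) with DESeq2 on quantile-normalized counts. Nars2 (0.37), Lars2 (0.4), Mars2 (0.43) and Wars2 (0.45) passed it with higher levels, a direction that reversed for each of the 4 when the length trend was removed. Fars2 (-0.45), Sars2 (-0.33), Yars2 (-0.26), Hars2 (-0.13), Pars2 (-0.06), Vars2 (0.02) and Iars2 (0.32) did not pass it, with adjusted p from 0.0514 to 0.892. Without 24m replicate 1, Fars2 (-0.58), Sars2 (-0.44) and Iars2 (0.49) passed as well. Yars2 was at -0.14 without that library, and Iars2 at 0.18 without 24m replicate 4. Fars2 ranged widely within an age, from 30.5 to 49.4 CPM in 6m and from 23.6 to 39.8 CPM in 24m.

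Cytosolic and mitochondrial enzymes for the same amino acid were set side by side in 19 pairs, counting Eprs1, Tars2 and Fars2 in 2 pairs each. Their log2FC had the same sign in 13 pairs and opposite signs in 6. Some of these signs rest on a log2FC smaller than its SE. In pairs of opposite sign these were Aars1 (0.05 ± 0.07), Mars1 (-0.03 ± 0.09), Yars1 (0.01 ± 0.09) and Vars2 (0.02 ± 0.1). In a pair of the same sign it was Pars2 (-0.06 ± 0.1). Threonine was the amino acid with the widest separation, since Tars3 was called higher and Tars2 lower (a difference of 1.47 between the log2FC). Eprs1 and Pars2, for proline, differed by -1.0. Leucine, chosen here because both of its enzymes passed the adjusted p in opposite directions and after its values were seen, had a difference of -0.92 between Lars1 and Lars2. Lars1 had 68.7, 65.3, 61.6 and 59.5 CPM in 6m and 46.2, 41.6, 42.7 and 46.7 CPM in 24m. Lars2 had 16.2, 18.2, 16.7 and 18.2 CPM in 6m and 18.7, 23.1, 24.3 and 25.1 CPM in 24m. Libraries of the ages did not overlap for either gene, with Lars1 lower (adjusted p = 0.000528) and Lars2 higher (adjusted p = 0.01) in 24m, although neither was called and Lars2 reversed to -0.22 with the length trend removed. For arginine and cysteine both enzymes had negative log2FC that passed the adjusted p (-0.45 and -0.67 for Rars1 and Rars2, -0.45 and -0.63 for Cars1 and Cars2).

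Levels per kilobase of canonical transcript spanned over 2 orders of magnitude. Sars1, the seryl enzyme, was highest at both ages, with 148 ± 8.49 CPM per kb in 6m and 110.1 ± 21.6 in 24m. Gars1 was next with 92.4 ± 1.98 in 6m, followed by Kars1 with 89.3 ± 7.18 and Hars1 with 80.5 ± 3.1, and the SD ranges of Kars1 overlap those of both Gars1 and Hars1. In 24m Hars1 (65.4 ± 2.86) and Kars1 (63.9 ± 10) changed places within their spread. Mars2 was lowest with 0.322 ± 0.0474 in 6m and 0.433 ± 0.0704 in 24m, below Wars2 (0.429 ± 0.0522 and 0.586 ± 0.0706) and Nars2 (0.889 ± 0.0772 and 1.15 ± 0.119). The cytosolic enzyme had the higher level per kb in 17 of 19 pairs in 6m, with a median ratio of 3.63 and a highest ratio of 105 for tryptophan. Threonine was the exception: Tars2 (30 ± 2.9 CPM per kb) exceeded both Tars1 (7.39 ± 0.276) and Tars3 (3.87 ± 0.583), giving ratios of 0.247 and 0.129. Eprs1 went from rank 15 to rank 19 among the 38 members, Rars2 from rank 25 to 31, and Tars3 from rank 32 to 26.

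**Figure D3:**
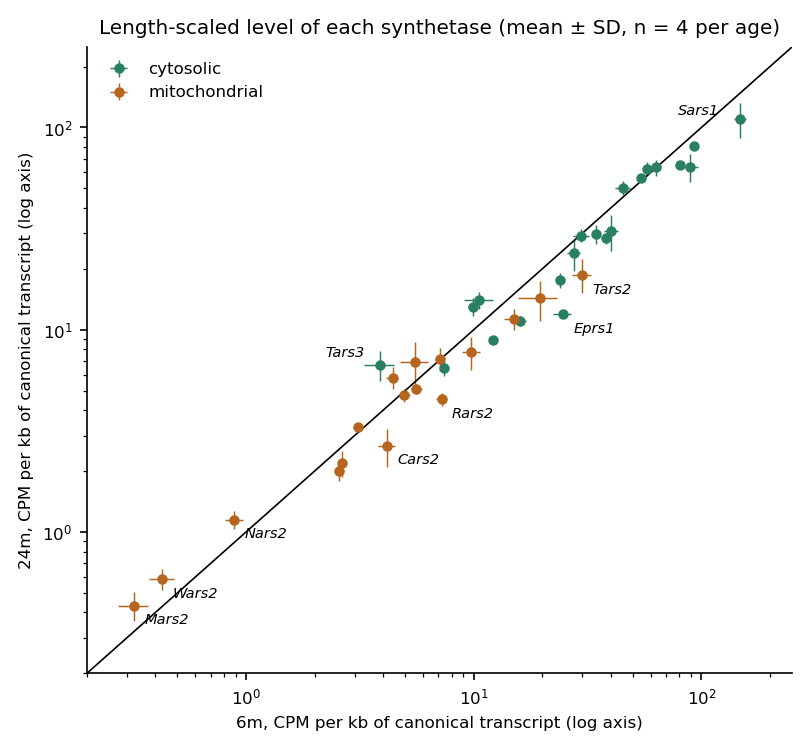
Level of each synthetase in CPM per kb of canonical transcript at 6m (horizontal) and 24m (vertical), both on log axes, with the mean and SD of 4 libraries per age; the diagonal marks equal levels. Cytosolic enzymes mostly lie at the upper right and mitochondrial ones at the lower left, with Sars1 highest (148 in 6m) and Mars2 lowest (0.322 in 6m).

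Fold changes in these libraries went with gene length, so the members were placed against genes as long as they are. Over all 16677 tested genes with an annotated length, log2FC and exonic length (the union of exons) had a Spearman rho of 0.42 across genes, and the median log2FC went from -0.67 in the shortest of 10 equal length bins to 0.52 in the longest. The synthetase genes have exonic lengths of 2501 to 23315 bases, with a median of 7395 against 5768 over all genes tested. Across the 38 members rho was 0.05, with 0.07 over the cytosolic and 0.29 over the mitochondrial ones. With the length of the canonical transcript in its place, rho was 0.56 over all genes, 0.24 over the 38 members, 0.01 over the cytosolic and 0.5 over the mitochondrial ones. Relative to the median of their length bin, 30 members lay below and 8 above, with a median difference of -0.31. Eprs1, the member with the longest exonic length, was the one with the most negative log2FC. These are descriptions across genes of the same libraries, which are not independent replicates. With the length trend removed from each library, 6 cytosolic and 7 mitochondrial members were called lower and 0 in either set higher, beside 20.4% of all genes lower and 19.4% higher. Eprs1, Tars2, Rars2 and Cars2 were among those called lower. Whether the length trend comes from RNA quality, library preparation or the tissue was not tested.

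**Figure D4:**
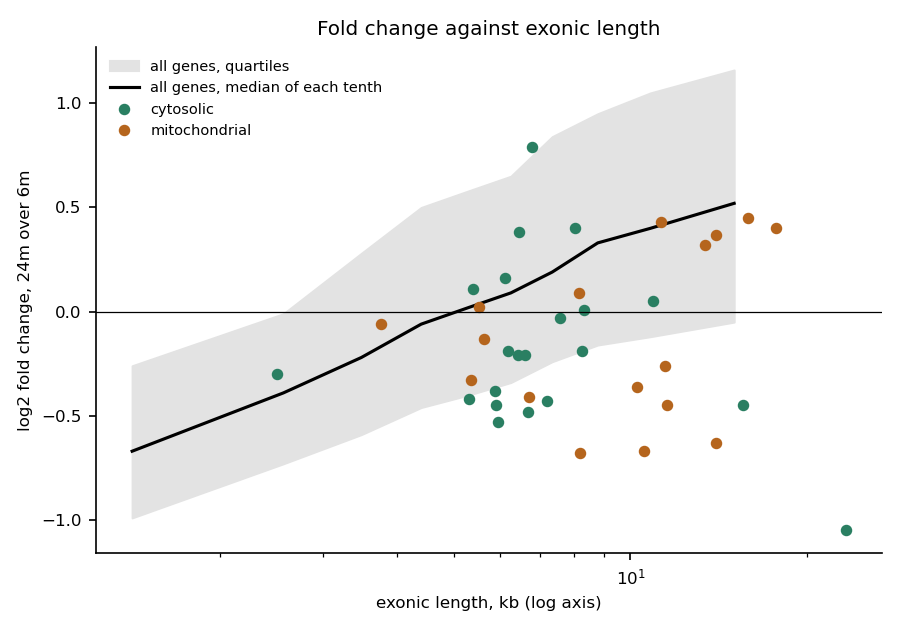
Log2 fold change (24m over 6m, vertical axis) against exonic length in kb (log axis) for cytosolic and mitochondrial synthetases; the black line joins the medians of all genes tested in 10 bins of exonic length and the gray band their quartiles. The line climbs from -0.67 to 0.52, and 30 of 38 synthetases lie below the median of their bin.

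The genes that work beside the synthetases were taken as 4 lists. All 3 scaffold genes of the multisynthetase complex had lower levels in 24m without overlap between ages, as had 4485 of all 16730 genes. Aimp1 had 90.0, 82.9, 87.1 and 85.6 CPM in 6m, and 64.3, 49.3, 48.3 and 50 CPM in 24m, and was called lower (log2FC -0.71 ± 0.1, adjusted p = 0.000385). Aimp2 had 82.3, 76.3, 79.0 and 90.0 CPM in 6m, and 63.1, 46.1, 44.5 and 37.9 CPM in 24m, and was also called lower (-0.77 ± 0.15, adjusted p = 0.00143). Eef1e1, the third scaffold, passed the adjusted p alone (-0.51 ± 0.1, adjusted p = 0.00182). Without 24m replicate 1 all 3 scaffolds were called lower, beside 21.6% of all genes. With library totals alone none of the 3 was called. Under that scaling the lower calls went from 5 to 2 in the delivery and editing list, from 5 to 2 in the mitochondrial list and from 5 to 3 in the amino acid response list described next, while the higher calls of these lists stayed at 2, 1 and 6. Of all genes, 10.4% were called lower under it in place of 18.3%, and 32.6% higher in place of 25.3%.

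Of 15 genes for cytosolic tRNA delivery and editing, 7 were called (46.7%, beside 43.6% of all genes), 2 of them higher and 5 lower, and the median log2FC was -0.47. Without 24m replicate 1, 7 were called lower and 2 higher, beside 21.6% and 28.2% of all genes. Sepsecs, which completes selenocysteine on its tRNA (log2FC 1.17 ± 0.22), and Xpot, the nuclear export receptor of tRNA (0.9 ± 0.18), were higher. Xpot had 23.1, 25.2, 24.7 and 22.1 CPM in 6m and 29.6, 42.8, 45.8 and 58.9 CPM in 24m, which do not overlap but spread widely in the aged animals. Eef1d, an exchange factor subunit for the elongation factor that carries charged tRNA (-0.86 ± 0.13), and Prorsd1, a member of the editing family that clears wrong amino acids from the proline tRNA (-0.82 ± 0.16), were lower.

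Of 24 partners in mitochondrial translation and tRNA maturation, 1 was called higher and 5 lower (25%, beside 43.6% of all genes, with 18.3% of all genes lower). The median log2FC was -0.33. By the adjusted p alone 14 passed with a negative and 1 with a positive log2FC, beside 29.9% and 32.7% of all genes. With 1 library left out, lower calls ran from 3 (without 24m replicate 4) to 7 (without 24m replicate 1). Beside these, 15.7% and 21.6% of all genes were called lower. With the length or GC trend removed 9 and 10 were called lower and 0 higher, beside 20.4% and 22.7% of all genes lower. Trmu, which thiolates mitochondrial tRNAs, had 42.5, 37.5, 35.9 and 39.9 CPM in 6m, and 26.7, 19.8, 19.9 and 17.3 CPM in 24m (log2FC -0.9 ± 0.13). Tsfm, the mitochondrial exchange factor Ts, fell with a log2FC of -0.82 ± 0.13, as did Hsd17b10 and Prorp, subunits of the mitochondrial RNase P (-0.64 for each). Trmt10c, the third subunit, did not pass the adjusted p (-0.09 ± 0.15, adjusted p = 0.617). Nsun3, which modifies the mitochondrial methionine tRNA, was called higher (0.68 ± 0.16) at a low level of 1.68 ± 0.218 CPM in 6m and 2.69 ± 0.4 CPM in 24m. Mitochondria make glutaminyl-tRNA without a glutaminyl synthetase, from a tRNA that Ears2 charges with glutamate and that the Qrsl1, Gatb and Gatc subunits then amidate. Ears2 (-0.36), Qrsl1 (-0.33) and Gatb (-0.53) passed the adjusted p alone with lower levels, while Gatc did not (0.08 ± 0.1, adjusted p = 0.547).

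Calls among 27 genes of the amino acid response went both ways, with 6 higher and 5 lower (40.7%, beside 43.6% of all genes) and a median log2FC of -0.14. Leaving out each library in turn gave 3 to 5 lower calls and 6 higher ones, beside 15.7% to 21.6% of all genes lower. Slc7a1, a transporter of cationic amino acids, had 1.42, 2.01, 1.82 and 1.13 CPM in 6m, and 4.67, 11.1, 11.7 and 13.7 CPM in 24m (log2FC 2.69 ± 0.33). Atf3 (1.24 ± 0.26), a transcription factor of the stress response, Sesn2 (1.14 ± 0.09), a sensor of leucine, and Slc38a2 (1.14 ± 0.22), a transporter of neutral amino acids, were also higher, although Atf3 stayed at or below 1.3 CPM. Atf4 itself, named after its values were seen, had 357, 324, 343 and 381 CPM in 6m, and 197, 189, 177 and 153 CPM in 24m. Atf4 was called lower (log2FC -0.97 ± 0.1, adjusted p = 6.89e-05), without overlap between ages. Asns, the asparagine synthetase and a much used readout of this response, did not pass the adjusted p (0.01 ± 0.08, adjusted p = 0.92). Of the 5 synthetase genes with the response element in their promoters, shown above, none was called, while Cars1 (-0.45), Iars1 (0.38) and Gars1 (-0.19) passed the adjusted p alone.

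**Figure D5:**
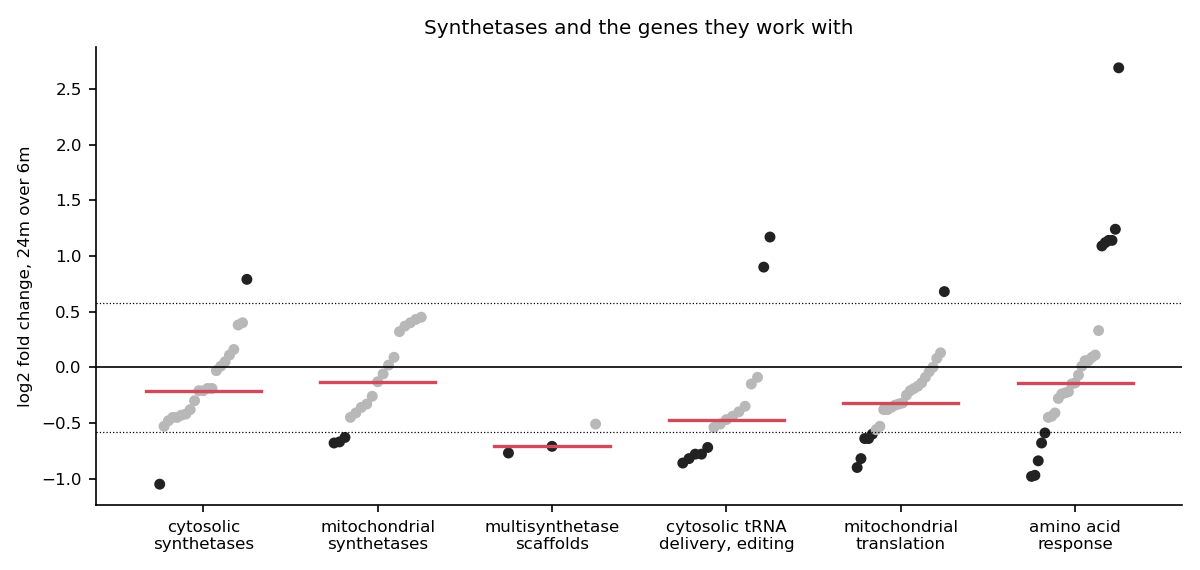
Log2 fold change (24m over 6m, vertical axis) of each gene in the cytosolic and mitochondrial synthetase sets and in the 4 lists of partner genes; black points are called, gray points are not, red bars mark the median of each list and dotted lines the fold threshold. List medians run from -0.71 (scaffolds) to -0.13 (mitochondrial synthetases).

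Several members share genomic space or sequence with other genes, and strand use and multimapping in the counting were not given in the sources used here. Exons of Mars1 overlap those of the opposite-strand gene Ddit3 over 47.18% of their length, the largest share among the members. Ddit3, a target of ATF4, was called lower (log2FC -0.98 ± 0.13), while Mars1 was not called (-0.03 ± 0.09, adjusted p = 0.796). The share was 33.89% for Mars2 (with Boll), 31.44% for Yars2, 27.41% for Iars2 and 25.36% for Farsb (with Sgpp2). Runs of 50 bases found elsewhere in the genome covered 21.62% of the canonical transcript of Yars2 and 20.7% of that of Iars1, and at most 8.71% in any other member. No member shared such a run with the mitochondrial genome. Hars1 and Hars2, the cytosolic and mitochondrial histidyl genes, are head to head on chromosome 18, with transcript starts that overlap by 197 bases. Hars1 passed the adjusted p alone (-0.3 ± 0.07) and Hars2 did not (-0.13 ± 0.09, adjusted p = 0.205). Synthetases of the structural class I (18 members) and class II (19 members), left without Eprs1 which holds both folds, had 2 called in each (11.1% and 10.5%, beside 43.6% of all genes).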

How the data were processed

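The authors sequenced directional poly(A) libraries paired-end, trimmed reads with Trim Galore 0.4.11, aligned them to GRCm39 with HISAT2 2.1.0 and counted them per gene with featureCounts. The deposited values are raw whole-number counts per gene and library. A gene was tested when over 5 counts were reached in 4 or more libraries (16730 genes). The ages were compared by edgeR 4.0.16 (R 4.3.3) with its quasi-likelihood F test and TMM scaling, with no covariate. SE was the log2FC over the square root of F. CPM used effective library sizes. No 2 libraries of an age agreed within sampling noise (chi-square per degree of freedom 8.17 to 424). The value was 181.5 to 424.2 between 24m replicate 1 and the other 24m libraries, and 12.97 to 61.36 among those others. When tested on simulated data (24m against 6m, 16730 genes), the fit called 68.0% of 200 genes given a log2FC of 1, and 5 unchanged genes.

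Gene positions, lengths and sequences came from GENCODE and GRCm39, and 22281 of 22430 rows matched. Alternatives were other scalings, DESeq2 1.42.0, limma-voom (limma 3.58.1), other filters and thresholds, libraries left out, a replicate block, and removal of length or GC trends. Members and lists were chosen with earlier results of these data known. Of the 38 members 36 are named and 2 are not reported here singly, although they are in the counts and medians. Values per library are given for those called and for Eprs1, Gars1 and Kars1, and up to 4 called genes per partner list. Lars1, Lars2, Tars1, Iars1, Rars1, Sars1, Atf4, Ddit3, Asns, Eef1e1, Trmt10c, Prorp and the subunits that amidate glutamyl-tRNA were given values beyond this rule after these were seen.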

Additional observations from a re-analysis of the deposited data

Results flagged for a closer look

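In 2 of the 72 groups of 4 libraries formed by 36 genes and 2 ages (2.78%), 1 library lay far from the other 3 by Dixon's criterion, which chance alone meets in about 1 of 20 groups. Yars1, the cytosolic tyrosyl enzyme, had 199.8 CPM in 6m replicate 4 against 175 to 179 CPM in the other young libraries. Rars1, the cytosolic arginyl enzyme, had 41.9 CPM in 24m replicate 4 against 35.6 to 36.0 CPM in the other aged libraries.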

How the results depend on the processing

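Counts of called members were within 1.5 times the values given, with the same members called, under median-ratio factors, DESeq2, limma-voom, both other filters and the replicate block. Without TMM factors (library totals alone), 3 cytosolic and 4 mitochondrial members were called higher, 0 mitochondrial members lower and 7 partner genes lower (17 by the fit described), with medians of 0.0 and 0.08 for the cytosolic and mitochondrial sets. With DESeq2 on quantile-normalized counts 0 cytosolic members were called higher, Ears2 was called lower as well (-0.64) and the medians were -0.11 and -0.33. With the length trend removed 6 cytosolic, 7 mitochondrial and 26 partner genes were called lower and 0 cytosolic members higher (medians -0.43 and -0.29). With the GC trend removed these were 5, 5, 27 and 0 (medians -0.38 and -0.28), beside 22.7% of all genes called lower and 21.4% higher. The median of all genes was -0.1 with quantile-normalized counts, and also with the length or the GC trend removed. By the adjusted p alone, 10 cytosolic, 5 mitochondrial and 37 partner genes were lower, and 3 cytosolic and 4 mitochondrial members higher. The share of called genes that were higher was 58.1%, and 75.7% with library totals, 47.9% with quantile-normalized counts, 48.8% without the length trend and 48.5% without the GC trend. The cause of these shifts was not tested.

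Leaving out each library in turn gave 1 cytosolic member called in each direction, 2 to 4 mitochondrial members lower and 0 higher, and 13 to 22 partner genes lower. Cars2 was lost without 24m replicate 4 and Fars2 gained without 24m replicate 1. Members past the adjusted p alone that missed it in at least 1 such fit were Farsa, Gars1, Ears2, Mars2, Nars2 and Wars2. Taken as deviations from the mean of their age, same-numbered libraries correlated at 0.271, 0.143, 0.0778 and -0.348 (replicates 1 to 4). Replicate 1 correlated best with its own number. Replicates 2, 3 and 4 correlated best with another number (0.368, 0.33 and 0.377). With 4 libraries per age these values cannot decide whether the numbers pair the samples. With the replicate block 7242 genes were called in place of 7295, and 1 cytosolic member was called higher and 1 lower, as without it. By the adjusted p alone, Gars1 (0.108), Mars2 (0.0872) and Wars2 (0.0615) missed it under the block, and Fars2 (0.00726) and Sars2 (0.048) passed.

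Some log2FC reversed, among them those of Lars2, Mars2, Nars2, Wars2 and Hars1, which had passed the adjusted p. Of the members named here, those reversed with library totals were Vars1 (0.0), Qars1 (0.0), Gars1 (0.03), Tars1 (0.03), Hars2 (0.08), Pars2 (0.16) and Mars1 (0.19). With quantile-normalized counts they were Vars2 (-0.06) and Mars1 (0.04), and with the GC trend removed it was Nars1 (-0.11). With the length trend removed they were Nars1 (-0.02), Wars1 (-0.04), Mars2 (-0.08), Wars2 (-0.11), Vars2 (-0.12), Nars2 (-0.18), Lars2 (-0.22), Iars2 (-0.24), Yars1 (-0.36), Aars1 (-0.42), Hars1 (0.02) and Pars2 (0.02). With 1 library left out, Yars1 ranged from -0.03 to 0.06, Vars2 from -0.05 to 0.08 and Mars1 from -0.05 to 0.03. Nars1 ranged from 0.05 to 0.16 and Pars2 from -0.08 to -0.02, without reversing. Members had at least 122 counts per library, and the share of counting noise in the spread of the lowest ones was not tested.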
